A study of Mus musculus with 10 samples.

Results

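The cytosolic ribosomal protein genes of the mouse were examined in tumors driven by MYC overexpression and SMARCA4 loss, in SHH medulloblastoma (MB) and in cerebella at postnatal day 7 (P7). Members were chosen by symbol alone: every row of the count files named as a protein of the small (Rps) or large (Rpl, Rplp) ribosomal subunit, without the marks of pseudogene rows. This gave 87 genes of 50559 in the files, 33 of the small and 54 of the large subunit. In the GENCODE annotation of GRCm39, 84 of them are protein-coding and 3 (Rpl6l, Rpl32l, Rps12l1) are pseudogene models. They lie on 19 chromosomes, and 4 are on the X chromosome. The rule misses some ribosomal proteins listed under other symbols, such as Rps3a1, Fau and Rack1.

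RNA of 10 FFPE samples was sequenced after depletion of ribosomal RNA. The 4 MYC/SMARCA4 tumors grew in CD1nu/nu mice, which lack a thymus, after transplantation of granule cell precursors. According to the study, the precursors came from tamoxifen-treated Math1-creERT2::Smarca4fl/fl pups and were exposed to a lentiviral vector that carries Myc under a CMV promoter. They were injected unsorted, as a mix of recombined and non-recombined cells, and cells without the vector can be among them. The samples were punches that can hold host brain. Tumors 1, 2, 3 and 4 were taken at 112, 96, 89 and 79 days of age. The 3 P7 cerebella were whole cerebella from Math1-creERT2::Smarca4fl/fl mice, 7 days old and given tamoxifen (0.4 mg) at P3, so part of their granule cell lineage can carry the same deletion as the tumors. The 3 SHH MB came from Math1-cre::Smofl/wt mice aged 7 days, in which Cre is active in the granule cell lineage. Age, host and transplantation differ between the groups together with the tumor type and cannot be told apart from it.

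The cytosolic ribosome is built from a small subunit, which reads the mRNA, and a large subunit, which joins amino acids. Each contains ribosomal RNA and a set of proteins that are needed in equal numbers, and their genes are usually regulated together. Most of these mRNAs begin with a cytosine followed by a run of pyrimidines, the 5' terminal oligopyrimidine (TOP) motif, through which mTOR and LARP1 set their translation and stability. MYC is known to raise transcription of ribosomal RNA, ribosomal proteins and ribosome assembly factors in many tissues, and dividing granule cell precursors need many ribosomes.

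Total counts lay between 5663491 and 9352109 per library. Myc was at 152 to 1587 normalized CPM (counts scaled to the size of the library) in the tumors, at 13.0 to 14.3 in P7 cerebella and at 33.7 to 45.7 in SHH MB. The gene-level Smarca4 count, which also covers exons that are not deleted, was 136 to 244 CPM in tumors, 221 to 282 in P7 cerebella and 491 to 590 in SHH MB. Tumor 1 stood apart from the other 9 libraries. Its share of counts on protein-coding genes was 71.5%, while tumors 2, 3 and 4 were at 81.8, 80.2 and 82.5%. The summed level of 7 proliferation markers was 126 CPM in tumor 1 and 1662, 1899 and 1761 CPM in tumors 2, 3 and 4, against 742 to 1000 in P7 cerebella and 2011 to 2468 in SHH MB. Myc itself was lowest in tumor 1 among the 4 tumors. Summed markers of mature granule neurons (7 genes) reached 5112 CPM in tumor 1 against 320 to 2069 in tumors 2 to 4, and those of Purkinje cells (5 genes) 10772 against 333 to 2625. Itpr1 was the largest part of the Purkinje sum in the tumors, with 7095, 2056, 289 and 1428 CPM in tumors 1 to 4 and 598 to 653 in P7 cerebella. Pcp2, Calb1, Car8 and Pcp4 were above the P7 range in tumor 1 and within or under it in tumors 2 to 4. Summed markers of myelinating oligodendrocytes (8 genes) were 4175 CPM in tumor 1 against 118 to 841. Summed markers of the granule cell lineage (7 genes) were at 641 to 2002 CPM in tumors, 1826 to 2050 in P7 cerebella and 1925 to 2313 in SHH MB. Genes of this list did not move together. Barhl1 was at 11.2 to 17.8 CPM in tumors, 109 to 133 in P7 cerebella and 314 to 415 in SHH MB. Atoh1 was at 0.496 CPM in tumor 1 and 17.4 to 29.7 in P7 cerebella. In tumor 1 Zic1 was at 900 CPM and Zic2 at 527, compared with 816 to 926 and 255 to 284 in P7 cerebella. No gene of these lists was at 0 throughout a group. In P7 cerebella the summed levels of mature granule neurons, Purkinje cells and oligodendrocytes were 1261 to 1557, 1338 to 1439 and 964 to 1143 CPM, and in SHH MB 768 to 836, 350 to 612 and 129 to 397 CPM. Mitochondrial genes took 6.36% of counts in tumor 1, 2.29 to 2.94% in tumors 2 to 4 and 1.25 to 1.59% in the control libraries. Genes of structural RNAs took 4.62% in tumor 1, 0.475 to 2.08% in tumors 2 to 4 and 0.244 to 1.40% in controls. Rows that resemble ribosomal RNA took 1.51 to 1.95% in the 4 tumors and 0.353 to 0.874% in controls. The TMM factor, which rescales the library size and so enters every CPM value, was 0.619 in tumor 1, 0.802 to 1.28 in tumors 2 to 4 and 1.01 to 1.196 in controls. Counts of called members are therefore given with and without tumor 1, and the part of these marker levels, RNA shares and factors in the results was not tested.

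The transcription starts of 7 members that mark the ends of the patterns below show what the TOP motif looks like. The windows are from RefSeq on GRCm38.p6 and cover 40 bases before and 15 bases after the annotated start, with the pyrimidine run in capitals. Rps15a, Rpl38 and Rps21 differed little between tumor 1 and tumors 2 to 4, Rps2 and Rps26 had the widest gaps, and Rps6 and Rpl27a are shown as a signaling target and as a called member.
Rps15a, chr7:118116133-118116187, minus strand: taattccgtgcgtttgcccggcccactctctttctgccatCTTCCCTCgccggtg
Rpl38, chr11:114668540-114668594, plus strand: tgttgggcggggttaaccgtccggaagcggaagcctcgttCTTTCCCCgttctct
Rps21, chr2:180257339-180257393, plus strand: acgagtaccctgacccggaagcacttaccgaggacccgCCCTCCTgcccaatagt
Rps26, chr10:128626492-128626546, minus strand: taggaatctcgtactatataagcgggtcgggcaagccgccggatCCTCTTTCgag
Rps2, chr17:24720023-24720077, plus strand: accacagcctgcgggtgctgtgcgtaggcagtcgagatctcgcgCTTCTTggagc
Rps6, chr4:86857353-86857407, minus strand: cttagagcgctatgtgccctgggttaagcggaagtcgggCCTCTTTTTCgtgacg
Rpl27a, chr7:109519155-109519209, plus strand: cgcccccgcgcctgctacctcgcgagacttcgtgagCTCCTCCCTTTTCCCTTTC

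A TOP start was defined as a C followed by at least 4 pyrimidines that begins within 5 bases of an annotated start. RefSeq windows were found for 64 members (76 windows), and 32 windows (42.1%) held such a start, compared with 18.3% of all 32851 windows. The E-box CACGTG, which MYC with MAX can bind, was in 8 of the 76 member windows of 250 bases before to 50 bases after the start (10.5%), compared with 7.15% of all windows. The E-box reads the same on either strand. A run or an E-box found in this way is a match of letters only.

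Ribosomal protein genes took the highest shares of counts in tumors 2 to 4 and the lowest in tumor 1. The share was 0.280, 1.29, 2.108 and 1.33% of all counts in tumors 1, 2, 3 and 4. It was 0.682, 0.629 and 0.716% in P7 cerebella and 0.692, 0.675 and 0.740% in SHH MB. The groups overlapped because of tumor 1: its share was under every control library, while the other 3 tumors were above every control library. The exact 95% binomial interval of the share in tumor 1 was 0.276 to 0.284%, which covers counting error only. The mean share was 1.25 ± 0.749% (SD, n = 4) in tumors, 0.675 ± 0.044% (n = 3) in P7 cerebella and 0.702 ± 0.034% (n = 3) in SHH MB. Without tumor 1 the tumor mean was 1.58%. Of the counts on protein-coding genes only, members took 0.391% in tumor 1, 1.58 to 2.63% in tumors 2 to 4 and 0.750 to 0.875% in the control libraries, so tumor 1 was lowest on this scale too. In bulk samples, fewer cells of a type and less RNA per cell cannot be told apart.

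**Figure D1:**
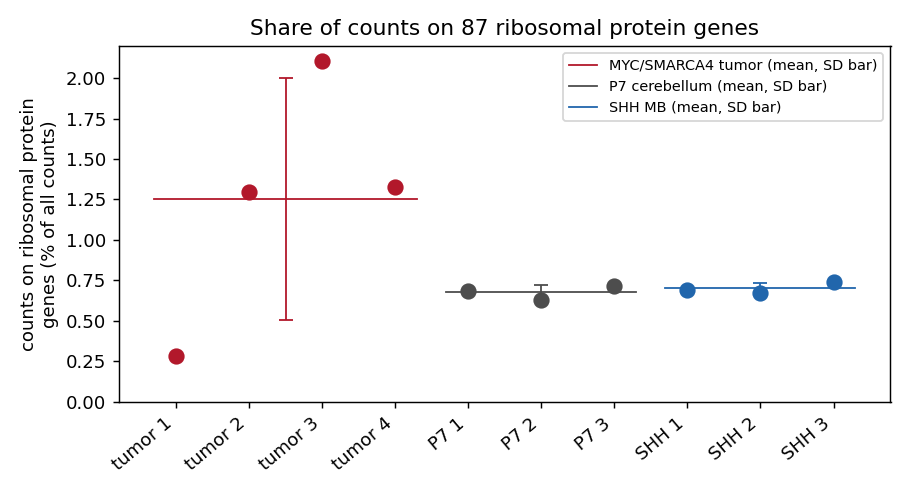
Share of all counts on the 87 ribosomal protein genes (%, vertical axis) in each of the 10 libraries (points), with the mean of each group (line) and its SD (bar). Tumor 1 (0.280%) is under all 6 control libraries, which span 0.629 to 0.740%, and tumors 2 to 4 (1.29 to 2.108%) are above them.

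Expression of 83 members was high enough for testing. Against P7 cerebella, 7 members rose in the MYC/SMARCA4 tumors at an adjusted p of at most 0.05 in edgeR's quasi-likelihood test (Rps15a, Rps21, Rpl30, Rps14, Rplp1, Rps3 and Rps25), while 3.99% of all 29952 genes tested rose by the same rule. None fell, by a rule that 2.27% of all genes passed: 1 member was lower at an unadjusted p of at most 0.05 (9.97% of all genes), and DESeq2 and limma on the deposited log2 values called 0 members lower. The fitted log2 fold change was above 0 in 81 of 83 members, compared with 48.1% of all genes, and its median was 1.07 for members and -0.05 for all genes. At an unadjusted p of at most 0.05, 63 members were higher, against 15.3% of all genes. Without tumor 1, 79 of 83 members rose at an adjusted p of at most 0.05 and the median was 1.32. Of all genes, 11.1% rose in that fit. The 4 members that did not were Rpl3l, Rps4l, Rpl32l and Rps12l1. The count also moved with other libraries: it was 1 without tumor 2 (1.77% of all genes rose in that fit), 10 without tumor 3 (11.8%) and 1 without tumor 4 (1.80%). It was 0 when any 1 of the 6 control libraries was left out, which gave 0.100 to 0.227% of all genes for a P7 library and 1.34 to 1.46% for an SHH MB library. DESeq2 called 39 members higher (10.4% of all genes) and limma 4 (3.08%).

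Rps21, a small subunit protein, rose against both control groups. Its level was 108, 197, 146 and 136 CPM in tumors 1 to 4, then 65.0, 60.4 and 68.3 CPM in P7 cerebella and 46.8, 52.6 and 51.6 CPM in SHH MB. All 4 tumors were above all 6 control libraries. The log2 fold change was 1.19 ± 0.26 (SE, adjusted p = 0.0222) against P7 cerebella and 1.54 ± 0.26 (adjusted p = 0.00613) against SHH MB. The gene lies on chromosome 2 at 179899114 to 179900249 of GRCm39. It was the only member past the stricter limits of a log2 fold change over 1.5 and an adjusted p of at most 0.01 against SHH MB, which 0.294% of all genes passed.

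Rps15a, a small subunit protein whose gene is among those mutated in Diamond-Blackfan anemia, rose against both as well. It was at 176, 233, 200 and 199 CPM in the tumors, at 99.8, 85.4 and 93.7 CPM in P7 cerebella and at 90.2, 110 and 91.0 CPM in SHH MB. The tumors did not overlap either control group, and tumor 1 was the lowest of the 4 tumors by little. Its log2 fold change was 1.12 ± 0.24 against P7 cerebella (adjusted p = 0.0207) and 1.06 ± 0.24 against SHH MB (adjusted p = 0.0264).

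Rps14, whose partial loss underlies the anemia of the 5q- syndrome in humans, was at 134, 323, 309 and 244 CPM in tumors, at 110, 100 and 118 CPM in P7 cerebella and at 98.2, 106 and 111 CPM in SHH MB. Tumor 1 was nearest to the controls but still above them. Its log2 fold change was 1.21 ± 0.31 (adjusted p = 0.0406) and 1.27 ± 0.31 (adjusted p = 0.0377) against P7 cerebella and SHH MB, respectively.

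Rps3, which lines the mRNA entry channel, and Rps25 were called against P7 cerebella alone. Rps3 was at 202, 817, 765 and 610 CPM in tumors, at 223, 198 and 210 CPM in P7 cerebella and at 253, 247 and 283 CPM in SHH MB. Here tumor 1 was within the range of the P7 cerebella and under SHH MB. The log2 fold change of Rps3 was 1.51 ± 0.41 (adjusted p = 0.0487) against P7 cerebella and 1.2 ± 0.41 (adjusted p = 0.119) against SHH MB. Rps25 was at 28.0, 98.8, 86.1 and 73.4 CPM in tumors and at 34.5, 27.6 and 22.0 CPM in P7 cerebella, with a log2 fold change of 1.35 ± 0.37 (adjusted p = 0.0490).

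Rpl30, a large subunit protein, rose against P7 cerebella. It was at 57.5, 63.5, 48.1 and 48.1 CPM in MYC/SMARCA4 tumors, at 31.6, 21.4 and 21.0 CPM in P7 cerebella and at 41.4, 43.4 and 43.5 CPM in SHH MB. Tumor 1 had the second highest level of all libraries, and neither tumor group overlapped the P7 cerebella, although SHH MB did not pass the test (log2 fold change 0.79, adjusted p = 0.379). The log2 fold change of MYC/SMARCA4 tumors was 1.14 ± 0.25 against P7 cerebella (adjusted p = 0.0220) and 0.34 ± 0.24 against SHH MB (adjusted p = 0.466).

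Against SHH MB, 9 members rose (Rps21, Rpl38, Rps15a, Rplp1, Rps14, Rps13, Rpl36al, Rpl36 and Rpl27a) and 2.43% of all genes did. No member fell, while 2.26% of all genes did. At an unadjusted p of at most 0.05, 0 members and 7.10% of all genes were lower, and DESeq2 and limma called 0 members lower. The fitted value was above 0 in 81 of 83 members, compared with 50.4% of all genes, with medians of 1.00 and 0.01. At an unadjusted p of at most 0.05, 52 members were higher and 12.7% of all genes were. Without tumor 1, 77 members rose against 5.91% of all genes, and the median was 1.25. Those left out were Rpl30, Rpl3l, Rps4l and the 3 pseudogene models. The count was 2 without tumor 2 or tumor 4 (1.29 and 2.10% of all genes) and 8 without tumor 3 (9.57%). Leaving out any 1 P7 library gave 2 members (0.985 to 1.17% of all genes), and leaving out any 1 SHH MB library gave 0 (0.166 to 0.188%). DESeq2 called 27 higher (6.71%) and limma 3 (1.59%). Since this comparison uses the same 4 tumors as the one with P7 cerebella, it is no independent repeat.

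Rpl38, a large subunit protein known for its role in translation of Hox mRNAs in the mouse embryo, separated the tumors from SHH MB but less so from P7 cerebella. It was at 54.3, 90.2, 66.9 and 68.1 CPM in tumors, at 40.66, 49.8 and 52.9 CPM in P7 cerebella and at 28.9, 26.7 and 29.5 CPM in SHH MB. No groups overlapped. The log2 fold change was 1.30 ± 0.25 (adjusted p = 0.0125) against SHH MB and 0.55 ± 0.24 (adjusted p = 0.183) against P7 cerebella.

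Rpl27a was at 42.1, 164, 130 and 137 CPM in tumors, at 53.2, 44.5 and 42.9 CPM in P7 cerebella and at 39.98, 40.3 and 48.4 CPM in SHH MB. Tumor 1 lay among the controls, and the other 3 tumors were above all of them (1.46 ± 0.38 against SHH MB, adjusted p = 0.0472). Rps13 (1.19 ± 0.30, adjusted p = 0.0422) and Rpl36 (1.16 ± 0.30, adjusted p = 0.0454) were called against SHH MB with smaller changes.

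**Figure D2:**
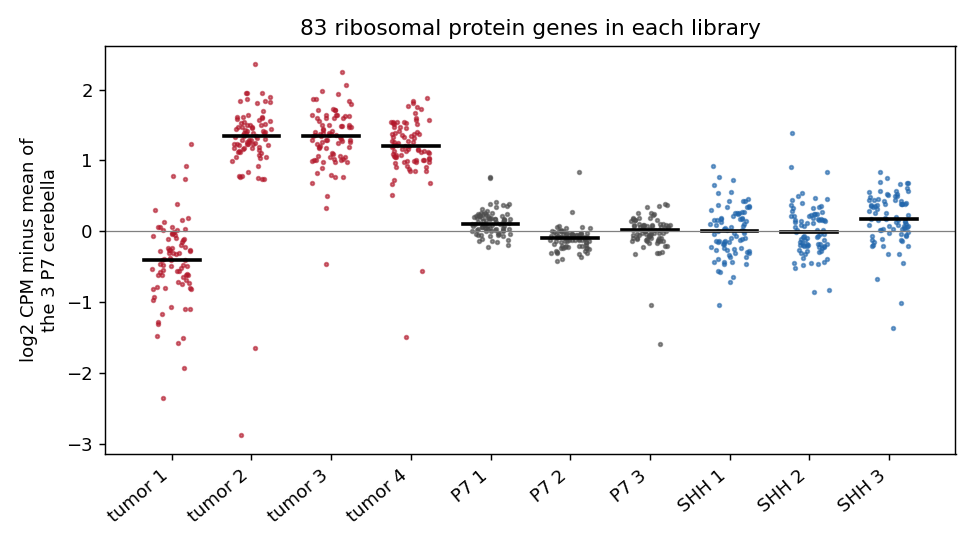
Difference in log2 CPM from the mean of the 3 P7 cerebella (vertical axis) for each of the 83 tested ribosomal protein genes (points) in each library, with the median (black line). The medians of tumors 2, 3 and 4 are 1.35, 1.34 and 1.2, that of tumor 1 is -0.40, and those of SHH MB are 0.01, -0.01 and 0.18.

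Tumor by tumor, the shift was shared by nearly all members. In tumors 2, 3 and 4, 81, 82 and 81 of 83 members were above every P7 cerebellum, which held for 37.1, 36.0 and 35.8% of all genes. In tumor 1, 57 members were under every P7 cerebellum and 7 were above, against 46.7 and 38.3% of all genes. The median member was 1.35, 1.34 and 1.2 log2 units above its P7 mean in tumors 2, 3 and 4, and 0.40 log2 units under it in tumor 1 (-0.40). The plot of differences by library shows tumors 2 to 4 as clouds of similar height and tumor 1 as a lower cloud. Members spanned -2.35 to 1.24 log2 units in tumor 1 and -2.88 to 2.36 in tumor 2. They spanned -0.462 to 2.24 in tumor 3 and -1.497 to 1.88 in tumor 4. The full span was wider in tumor 2 than in tumor 1. However, the lowest member in tumors 2 to 4 was the low-count Rps4l. From lower to upper quartile, members went from -0.699 to -0.0833 in tumor 1 and from 1.164 to 1.522 in tumor 2. They went from 1.063 to 1.595 in tumor 3 and from 1.006 to 1.440 in tumor 4. The spread between quartiles was thus widest in tumor 1. Groups did not overlap in 7 members that were higher in tumors than in P7 cerebella (10.3% of all genes), in 1 that was lower (Rps4l, 10.7%) and in 11 that were higher than in SHH MB (7.83%). Without tumor 1 the counts of higher members were 81 (17.6%) and 80 (12.9%).

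No member differed between SHH MB and P7 cerebella at an adjusted p of at most 0.05 in edgeR's test, in which 0.177% of all genes were higher and 0.0467% lower. At an unadjusted p of at most 0.05, 1 member was higher (5.16% of all genes) and 1 was lower (3.64%), and DESeq2 and limma called 0 in either direction. The fitted value was above 0 in 46 of 83 members and in 43.8% of all genes, with medians of 0.09 and -0.09. Groups did not overlap in 18 members that were higher in SHH MB (17.8% of all genes) and in 5 that were lower (19.0%). When these 2 groups were fitted without the MYC/SMARCA4 tumors, which vary more, 13 of 81 members rose and 2 fell (Rpl38 and Rps4l), while 13.4% of all genes rose and 10.3% fell. Rpl30 was among those that rose in that fit. The median SD of log2 CPM over members was 0.920 in the tumors, 0.175 in P7 cerebella and 0.158 in SHH MB.

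The drop in tumor 1 was uneven, which shows when each member is set against the median member of its own library. Rps26, a Diamond-Blackfan anemia gene whose protein sits at the mRNA exit, was 1.73, 1.83 and 1.53 log2 units above the median member in tumors 2, 3 and 4 and 0.15 under it in tumor 1 (-0.15). Its level was 33.7 CPM in tumor 1 and 405, 464 and 334 CPM in tumors 2 to 4, compared with 113 to 154 CPM in P7 cerebella and 166 to 210 CPM in SHH MB. This 11.9-fold gap between tumor 1 and the mean of the other tumors was the widest of all tested members, for which the median gap was 3.53-fold.

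Rps2 and Rpl29 followed. Rps2, a protein of the mRNA entry region, was at 25.8 CPM in tumor 1 and at 252, 286 and 279 CPM in tumors 2 to 4, with 74.8 to 81.7 CPM in P7 cerebella and 87.7 to 99.3 CPM in SHH MB. Rpl29 was at 7.44 CPM in tumor 1 and at 65.5, 72.3 and 82.6 CPM in tumors 2 to 4, with 36.6 to 43.3 CPM in P7 cerebella and 35.1 to 46.9 CPM in SHH MB. For Rps26, Rps2 and Rpl29 tumor 1 was the lowest of the 10 libraries and tumors 2 to 4 were the 3 highest. None of the 3 was called with all tumors (adjusted p of 0.211 for Rps26, 0.141 for Rps2 and 0.511 for Rpl29 against P7 cerebella). All 3 rose without tumor 1, with log2 fold changes of 1.63, 1.81 and 0.92 (edgeR, adjusted p = 0.000712, 0.000144 and 0.00914). They were picked for their range over the 4 tumors, so these p-values follow in part from the choice. In that fit 79 of 83 members and 11.1% of all genes rose.

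At the other end, Rpl30, Rps15a and Rpl38 had the narrowest range over the 4 tumors, 0.40, 0.41 and 0.73 log2 units, compared with 3.77, 3.46 and 3.43 for Rps26, Rps2 and Rpl29. Relative to the median member, Rps15a was 2.22 log2 units higher in tumor 1 and 0.93, 0.62 and 0.79 higher in tumors 2 to 4. The median member itself was at 5.24 log2 CPM in tumor 1 and at 6.93, 7.02 and 6.85 in tumors 2 to 4. Because Rps15a and Rps26 were picked for their range over the tumors, their shifts relative to the median member follow in part from the choice. Rps21 was 1.52 log2 units above the median member in tumor 1 and 0.69, 0.16 and 0.24 in tumors 2 to 4. Of the 7 members called against P7 cerebella, Rps15a, Rps21, Rpl30 and Rps14 had all 4 tumors above all P7 cerebella, while Rps3, Rps25 and Rplp1 overlapped them through tumor 1. Of the 3 members with the widest gap and the 3 with the narrowest range, Rps26, Rps2, Rps15a and Rpl38 have a TOP start, and Rpl29 and Rpl30 have no window in the table. Rpl30 and the low-count Rps4l and Rpl3l were the tested members whose level in tumor 1 was above the mean of tumors 2 to 4.

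**Figure D3:**
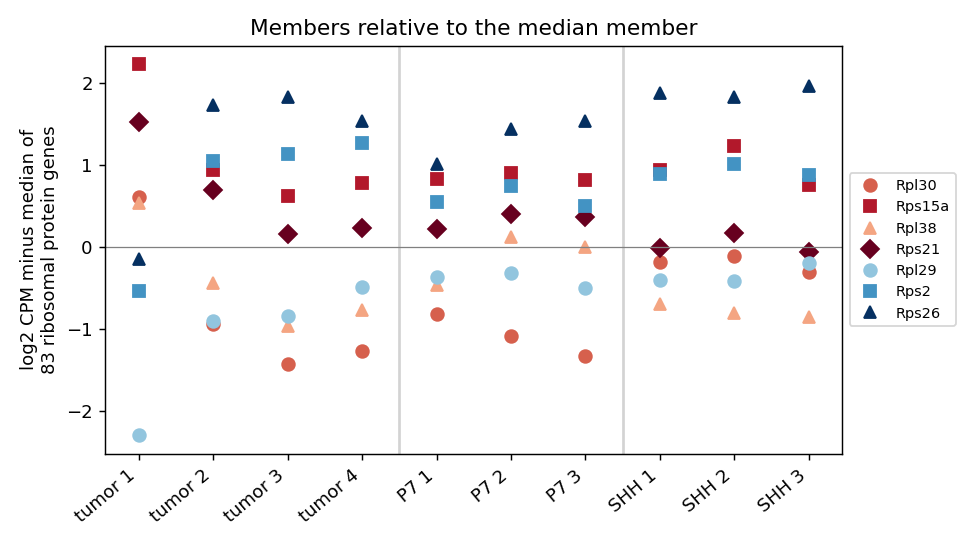
Level of 7 members relative to the median of the 83 tested members of the same library (log2 CPM difference, vertical axis) in each library. Rps26 stands 1.53 to 1.83 above the median member in tumors 2 to 4 and at -0.15 in tumor 1, while Rps15a goes from 0.62 to 0.93 in tumors 2 to 4 to 2.22 in tumor 1.

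Both subunits showed similar values. The median log2 fold change against P7 cerebella was 1.10 over 32 small subunit members (5 called) and 1.05 over 51 large subunit members (2 called). By the same rule 3.99% of all genes rose, so the count for the large subunit is near that share. Against SHH MB the medians were 1.02 (4 called) and 0.96 (5 called), while 2.43% of all genes rose. Without tumor 1, 30 and 49 members rose against P7 cerebella (11.1% of all genes), and 30 and 47 against SHH MB (5.91%).

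The P stalk is the flexible arm of the large subunit that recruits elongation factors, and it is formed by Rplp0, Rplp1 and Rplp2. Rplp1 was at 150, 549, 458 and 422 CPM in tumors, at 135, 139 and 168 CPM in P7 cerebella and at 112, 128 and 140 CPM in SHH MB. Tumor 1 overlapped the P7 cerebella and was above SHH MB. Rplp1 rose against either group, with log2 fold changes of 1.42 ± 0.39 (adjusted p = 0.0472) and 1.64 ± 0.39 (adjusted p = 0.0316). Rplp0 was at 97.4 CPM in tumor 1 and at 559, 630 and 779 CPM in tumors 2 to 4, with 214 to 250 CPM in P7 cerebella and 298 to 350 CPM in SHH MB. Its partner Rplp2 was at 65.2 CPM in tumor 1 and at 291, 244 and 228 CPM in tumors 2 to 4. The mean of tumors 2 to 4 was 6.74-fold above tumor 1 for Rplp0 and 3.18-fold for Rplp1. Rplp0 shares 62.8% of its coding bases with exons of another gene, so reads of the pair may not be told apart.

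Rpl5 and Rpl11 form the 5S particle with 5S ribosomal RNA, which binds MDM2 when ribosome assembly is disturbed and so stabilizes p53. Rpl5 was at 29.0, 113, 141 and 111 CPM in tumors, at 50.7, 40.2 and 39.1 CPM in P7 cerebella and at 54.6, 55.5 and 63.8 CPM in SHH MB. Rpl11 was at 31.7, 115, 112 and 119 CPM in tumors, at 55.9, 46.1 and 45.4 CPM in P7 cerebella and at 35.5, 40.65 and 48.7 CPM in SHH MB. The pair moved alike: tumor 1 was the lowest library for each and tumors 2 to 4 were the highest. Against P7 cerebella their log2 fold changes were 1.19 ± 0.41 (adjusted p = 0.101) and 0.94 ± 0.38 (adjusted p = 0.151), and without tumor 1 they were 1.5 and 1.24 (edgeR, adjusted p = 0.000569 and 0.00155).

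Rps6, the small subunit protein phosphorylated by S6 kinases downstream of mTOR, was at 25.04, 98.3, 94.9 and 84.2 CPM in tumors, at 34.1, 32.1 and 33.5 CPM in P7 cerebella and at 43.1, 39.4 and 45.2 CPM in SHH MB. Rpsa, which is also known as a laminin receptor, was at 35.4 CPM in tumor 1, at 229, 250 and 252 CPM in tumors 2 to 4, at 83.6 to 117 CPM in P7 cerebella and at 86.0 to 106 CPM in SHH MB. In both, tumor 1 was under all control libraries. Rps27a, which is made as a fusion with ubiquitin, was at 49.8 CPM in tumor 1 and at 127, 114 and 110 CPM in tumors 2 to 4, with 37.2 to 63.9 CPM in P7 cerebella. Here tumor 1 lay within the controls. None of the 3 was called with all tumors (adjusted p of 0.0821, 0.263 and 0.0799 against P7 cerebella), and all 3 rose without tumor 1 (edgeR log2 fold changes of 1.48, 1.26 and 1.27, adjusted p = 0.000336, 0.00185 and 0.00291).

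The 19 members that are mutated in Diamond-Blackfan anemia, an inherited failure of red cell production, had a median log2 fold change of 0.95 against P7 cerebella and of 0.95 against SHH MB. Rps15a was the 1 called member of this list in either comparison, which is not far from the shares of all genes (3.99 and 2.43%). Without tumor 1, all 19 rose in each comparison (11.1 and 5.91% of all genes).

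Several ribosomal proteins have a paralog that replaces them in certain tissues, and 8 such paralogs were examined beside their parent genes. Of the 6 that were tested, 4 had a log2 fold change of 1.06 to 1.12 against P7 cerebella, none of them called, and Rpl3l and Rps4l had values under 0. Rpl22l1, which competes with Rpl22 in the nucleus and can be regulated by it, was at 11.9, 27.4, 30.8 and 25 CPM in tumors, at 10.3, 8.73 and 14.0 CPM in P7 cerebella and at 9.49, 8.84 and 12.4 CPM in SHH MB. Rpl22 itself was at 65.2, 278, 277 and 257 CPM in tumors, at 99.6 to 104 CPM in P7 cerebella and at 117 to 134 CPM in SHH MB. Tumor 1 was thus within the controls for Rpl22l1 and under all of them for Rpl22. Their log2 fold changes against P7 cerebella were 1.12 ± 0.34 (adjusted p = 0.0723) and 1.10 ± 0.41 (adjusted p = 0.119).

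Rps27l, a target gene of p53, was at 13.1, 57.2, 38.6 and 49.9 CPM in tumors, at 19.2, 14.8 and 22.1 CPM in P7 cerebella and at 12.3, 21.6 and 15.9 CPM in SHH MB. Rps27 was at 26.5, 83.5, 55.0 and 53.4 CPM in tumors and at 27.9 to 35.1 CPM in P7 cerebella. Rpl7l1, which acts in ribosome assembly, was at 35.2, 80.4, 87.7 and 104 CPM in tumors and at 30.9 to 46.8 CPM in P7 cerebella, while Rpl7 was at 65.2, 303, 371 and 305 CPM and at 135 to 155 CPM. In each pair tumors 2 to 4 were above all P7 cerebella for parent and paralog.

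Rpl36al was at 13.9, 25.2, 21.4 and 27.9 CPM in tumors, at 12.6, 10.4 and 8.99 CPM in P7 cerebella and at 11.7, 9.31 and 7.67 CPM in SHH MB. All 4 tumors were above all 6 control libraries. It was the 1 paralog called, with a log2 fold change of 1.21 ± 0.31 against SHH MB (adjusted p = 0.0439), but 95.3% of its coding bases are shared with exons of another gene. Rpl36a was at 22.8, 87.5, 82.1 and 71.5 CPM in tumors and at 36.9 to 44.2 CPM in P7 cerebella.

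Rps4l, a single-exon paralog of the X-linked Rps4x that lies on chromosome 6, had the lowest fitted value of all members against P7 cerebella. It was at 3.47, 0.72, 5.04 and 2.32 CPM in tumors (14, 4, 36 and 19 counts), at 8.48, 6.0 and 6.85 CPM in P7 cerebella (83, 55 and 48 counts) and at 3.27, 3.77 and 2.56 CPM in SHH MB. All 4 tumors were under all P7 cerebella and overlapped SHH MB. The log2 fold change against P7 cerebella was -1.29 ± 0.50 (adjusted p = 0.136), which did not pass the test. Rps4l was called lower without tumor 3, in a fit that called 22.8% of all genes lower. Rps4x was at 61.0, 216, 194 and 221 CPM in tumors, at 65.5 to 92.4 CPM in P7 cerebella and at 90.7 to 104 CPM in SHH MB.

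Rpl3l, the form of Rpl3 found in heart and skeletal muscle, was at 0.54 to 4.06 CPM in tumors, at 1.64 to 2.96 CPM in P7 cerebella and at 0.994 to 3.73 CPM in SHH MB, with full overlap. Skeletal muscle markers (5 genes) were at 2.7 to 20.1 CPM in sum in all libraries. Rpl3 was at 60.0, 216, 247 and 232 CPM in tumors, at 76.1 to 87.7 CPM in P7 cerebella and at 110 to 128 CPM in SHH MB. Rpl10 and Rpl39, the X-linked parents of paralogs used in the testis, had log2 fold changes of 1.34 ± 0.41 (adjusted p = 0.0702) and 1.07 ± 0.44 (adjusted p = 0.154) against P7 cerebella.

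**Figure D4:**
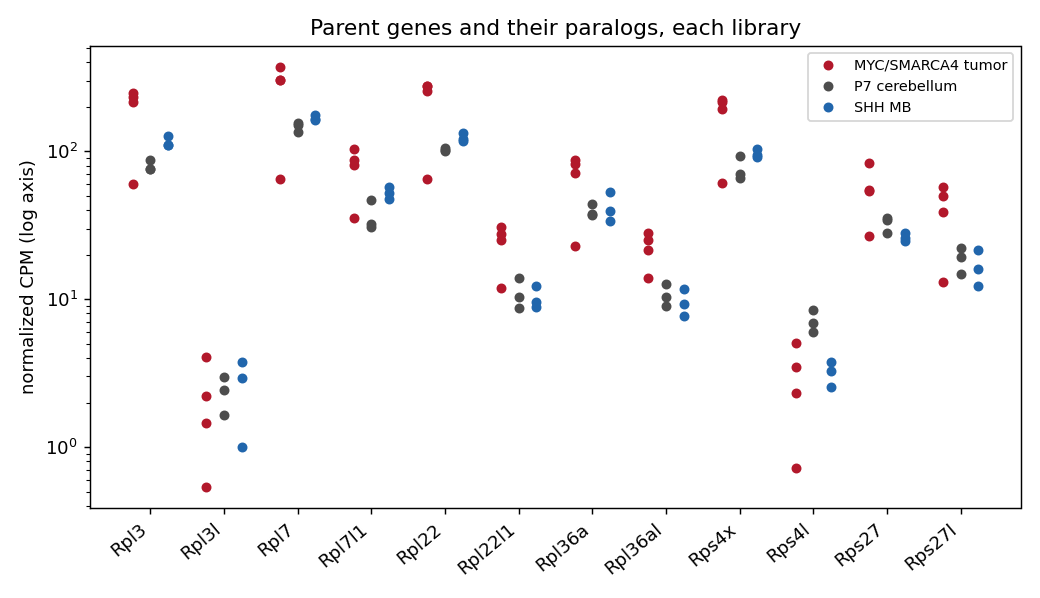
Normalized CPM (log axis) of 6 parent genes, each followed by its paralog, in every library (points, by group). Rpl3l and Rps4l are near or under 9 CPM in all libraries, and for all 6 parents the lowest tumor point is tumor 1.

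Of the 4 members that did not pass the filter on low counts, Rpl10l had 0 to 9 counts per library, Rpl39l 0 to 9 and Rpl28 3 to 16. Rpl10l and Rpl39l are forms of the male germ line, and summed germ cell markers (5 genes) were at 3.24 to 10.6 CPM. Rpl28, in contrast, is a core ribosomal protein. In GRCm39, all coding bases of Rpl28 (chromosome 7, 4795873 to 4799713) lie opposite exons of Ube2s. Reads that fall on exons of a pair of genes are dropped by usual counting without strand, and the strand setting is not given in the sources used here. The level of Rpl28 was therefore not read from these counts. In all, 10 members share over 50% of their coding bases with exons of another gene.

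Per length of coding sequence, Rpl41, Rplp1 and Rpl13a were the highest members in P7 cerebella, with 737, 431 and 406 CPM per kb. Rpl41 encodes the shortest ribosomal protein. Counts can also hold reads of untranslated exon bases, which raises the value most where the coding part is short (138 bases in Rpl41). Rpl13a shares 97.5% of its coding bases with exons of another gene. The lowest tested members were Rpl3l, Rps4l and Rpl22l1, with 1.92, 9.05 and 30.3 CPM per kb. In tumors the same 6 genes were at 1370, 1154, 909, 1.70, 3.67 and 65.5 CPM per kb as group means.

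Features that the choice of members did not use divided them little. The 29 tested members with a TOP start had a median log2 fold change of 1.10 against P7 cerebella, and the 32 with a window but no such start 1.02. Against SHH MB the medians were 1.03 and 0.98. In tumor 1 the mean level of these 2 sets was -0.41 and -0.42 log2 units from their P7 means. The 28 tested members with snoRNA genes inside them and the 55 without had medians of 1.08 and 1.06 against P7 cerebella. The snoRNAs, which guide modification of ribosomal RNA, were not counted as part of the members.

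Ribosomal protein genes have many near-identical processed copies, and reads that match several places can be lost or split between them. Rows named as pseudogenes of ribosomal proteins (321 rows) held 0.0264, 0.102, 0.196 and 0.0912% of counts in tumors 1 to 4, 0.0512 to 0.0721% in P7 cerebella and 0.0628 to 0.0703% in SHH MB. As for the members, the lowest share was in tumor 1 and the highest in tumor 3. The 3 pseudogene models among the members had 0 to 44 counts per library. Levels of single members are uncertain to the extent that such copies took their reads.

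Rack1, a scaffold on the small subunit listed under another symbol, was at 149, 869, 790 and 824 CPM in tumors, at 228 to 260 CPM in P7 cerebella and at 306 to 363 CPM in SHH MB. Tumor 1 was under all control libraries and tumors 2 to 4 were above them. Its log2 fold change against P7 cerebella was 1.42 ± 0.48 (adjusted p = 0.0938), and without tumor 1 it rose by 1.76 (edgeR, adjusted p = 0.000321).

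Other genes of the translation machinery differed in what tumor 1 showed. The list of 8 elongation factor genes includes Eef1akmt1, a methyltransferase that modifies eEF1A. Its mean level was -0.20 log2 units from that of P7 cerebella in tumor 1 and 1.29, 1.28 and 1.51 above it in tumors 2 to 4. For 34 initiation factors the difference was 0.54 in tumor 1 and 0.93, 0.69 and 1.19 in the others. For 8 chaperones that escort ribosomal proteins it was 0.66, and 0.99, 0.80 and 1.29. For 78 mitochondrial ribosomal proteins, which build the separate ribosome of mitochondria, it was 0.43, and 0.62, 0.41 and 0.81. Tumor 1 was thus above the P7 cerebella for the last 3 lists and under them for cytosolic ribosomal proteins. These are list means with no test.

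**Figure D5:**
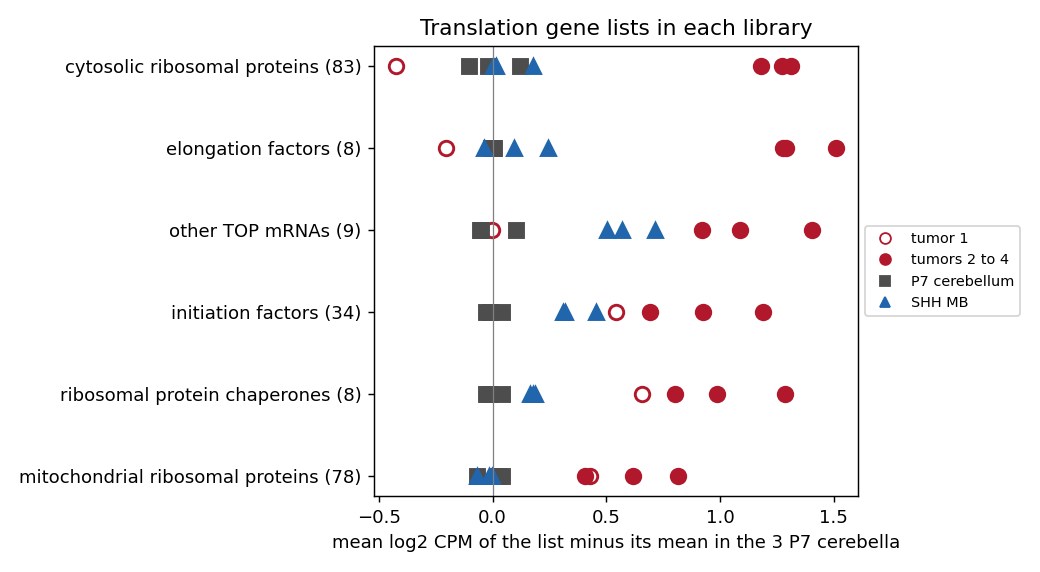
Mean log2 CPM of 6 gene lists in each library minus the mean of the same list in the 3 P7 cerebella (horizontal axis), with tumor 1 as an open circle. For cytosolic ribosomal proteins tumor 1 is at -0.42 and tumors 2 to 4 are at 1.18 to 1.31, whereas for mitochondrial ribosomal proteins all 4 tumors lie between 0.41 and 0.81.

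At an adjusted p of at most 0.05 in edgeR's test, 3.99% of all genes rose against P7 cerebella and 2.43% against SHH MB. Calls in the lists below moved with the processing, as given in the last section. Of the elongation factors, 4 of 8 rose against P7 cerebella and 1 rose against SHH MB. None fell, while 2.27 and 2.26% of all genes did. Eef1b2, an exchange factor for eEF1A, was at 115, 576, 649 and 500 CPM in tumors, at 121 to 139 CPM in P7 cerebella and at 182 to 234 CPM in SHH MB (1.81 ± 0.47 against P7 cerebella, adjusted p = 0.0408). Eif5a, which rescues stalled ribosomes, rose against either group (1.21 ± 0.32, adjusted p = 0.0425, and 1.28 ± 0.32, adjusted p = 0.0380). Of the initiation factors, 9 of 34 rose against P7 cerebella, led by Eif4b (1.59 ± 0.33, adjusted p = 0.0186), and 1 (Eif3m) against SHH MB. The latter count is near the share of all genes. Of the mitochondrial ribosomal proteins, 14 of 78 rose against P7 cerebella, among them Mrpl18 (1.33 ± 0.27, adjusted p = 0.0171), and 4 rose against SHH MB, among them Mrpl12 (1.65 ± 0.35, adjusted p = 0.0187).

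Of the chaperones, 3 of 8 rose against P7 cerebella (3.99% of all genes) and 2 against SHH MB (2.43%). Tsr2, which carries Rps26 to the nascent ribosome, was at 59.5, 45.2, 39.2 and 55.5 CPM in tumors, at 21.3, 19.3 and 17.4 CPM in P7 cerebella and at 20.8, 18.03 and 21.7 CPM in SHH MB. The tumors did not overlap either control group in Tsr2, and it was highest in tumor 1, the library in which Rps26 was lowest. The log2 fold change of Tsr2 was 1.36 ± 0.25 (adjusted p = 0.0114) against P7 cerebella and 1.30 ± 0.25 (adjusted p = 0.0116) against SHH MB. Heatr3, which imports Rpl5, rose against P7 cerebella (1.46 ± 0.27, adjusted p = 0.0116), and Grwd1, which binds Rpl3, rose against P7 cerebella (1.89 ± 0.40, adjusted p = 0.0198) and SHH MB (1.49 ± 0.39, adjusted p = 0.0491).

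Of the 9 other TOP mRNAs tested, 2 (Npm1 and Cct4) rose against P7 cerebella, while 3.99% of all genes did. Npm1, a nucleolar protein of ribosome assembly, was at 124, 362, 538 and 681 CPM in tumors, at 66.9 to 87.2 CPM in P7 cerebella and at 145 to 176 CPM in SHH MB (2.48 ± 0.48 against P7 cerebella, adjusted p = 0.0136). Of the 10 regulators of TOP mRNAs, 2 rose against P7 cerebella (3.99% of all genes) and 1 against SHH MB (2.43%). Eif4ebp1, a repressor of cap-dependent translation under mTOR, was at 2.48 CPM in tumor 1, at 24.3, 33.3 and 32.4 CPM in tumors 2 to 4, at 2.35 to 3.49 CPM in P7 cerebella and at 8.95 to 11.5 CPM in SHH MB. Tumor 1 was thus at the level of the P7 cerebella for Eif4ebp1, whose log2 fold change with all tumors was 2.91 ± 0.64 (adjusted p = 0.0223). Larp4, which binds poly(A) tails, rose against P7 cerebella (1.69 ± 0.30, adjusted p = 0.0110) and SHH MB (1.21 ± 0.30, adjusted p = 0.0371).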

How the data were processed

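RNA from FFPE tissue was sequenced as single-end reads from CORALL total RNA libraries after RiboCop depletion of ribosomal RNA. Per the submitters' processing notes, the authors used FastQC 0.73, Trimmomatic 0.38.1, STAR 2.7.8a on GRCm39, featureCounts 2.0.1 and DESeq2 2.11.40.7. The deposited counts are raw whole numbers per gene. The authors also deposited log2-scale values from the variance-stabilizing transformation of DESeq2. The annotation and the strand setting are not given in the sources used here.

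Counts of all 10 libraries were tested with edgeR 4.0.16 in R 4.3.3 (quasi-likelihood test, mean per group, TMM factors, filterByExpr). P-values of 29952 genes were adjusted by the Benjamini-Hochberg method, with calls at an adjusted p of at most 0.05. Levels (CPM) are counts scaled to the TMM-adjusted library size, and log2 CPM use a prior count of 2. SE are log2 fold changes divided by the root of F. The floor of 3 counts corresponds to 0.307 to 0.744 CPM. Intervals and floors cover counting error only. Labels do not say whether control libraries came from separate animals, so p-values measure the spread between samples. Replicates of a group differed by more than sampling noise. The script was tested on simulated data.

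Alternatives were DESeq2 1.42.0, limma 3.58.1, other scalings, filters and fits, the replicate number as a block and each library left out. Protein-coding genes only was added after the data were seen. Members and lists were chosen with earlier results of these data known. Named members are the role lists and paralogs with their parents, the 5 largest called changes in each direction, the 3 highest and 3 lowest per kb, the 3 widest and 3 narrowest ranges over tumors, members that failed the filter, and at most 5 called genes of each other list. Rps13, Rpl36, Rpl32l, Rps12l1, Rpl6l, Rack1 and the choice of printed starts were picked with their values in view. Results of some genes are not reported here.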

Additional observations from a re-analysis of the deposited data

Results flagged for a closer look

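In a group of 4, a library was marked where its gap to the nearest other library, divided by the range of the group in log2 CPM, was over 0.829, which chance gives in about 1 of 20 groups. Of 36 results examined in the 4 tumors, 16 passed, each time because tumor 1 lay far under tumors 2 to 4. Rps26, Rps2 and Rpl29 were examined for their wide range over these tumors, so that they passed follows in part from the choice. The share of counts on members, taken in percent, did not pass (0.555). The ratio was 0.957 for Rpl11, 0.952 for Rpsa, 0.949 for Rps2 and 0.946 for Rpl22. It was 0.906 for Rpl3, 0.903 for Rpl29, 0.901 for Rps4x and 0.900 for Rpl41. Further values were 0.886 for Rps6, 0.883 for Rpl7, 0.875 for Rps26, 0.849 for Rpl5 and 0.849 for Rpl36a. The lowest were 0.845 for Rps27a, 0.840 for Rplp0 and 0.839 for Rplp2. Over all 83 tested members, 43 (51.8%) passed, compared with 6.38% of all 29952 genes.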

How the results depend on the processing

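The median log2 fold change of members stayed above 0 against P7 cerebella (0.78 to 1.32 over 22 alternatives) and against SHH MB (0.75 to 1.25). Calls did not hold in this way. Against P7 cerebella and SHH MB, the numbers of members called higher, each with the share of all genes in brackets, were 39 (10.4%) and 27 (6.71%) with DESeq2, 4 (3.08%) and 3 (1.59%) with limma on the deposited values, 0 (1.02%) and 1 (1.44%) with total counts, 3 (3.08%) and 4 (2.33%) with library sizes without mitochondrial and rRNA-like genes, 3 (5.10%) and 4 (4.77%) with at least 10 counts in every library, and 0 (0.206%) and 0 (0.337%) with only the 2 groups compared. Total counts moved the median of all genes to -0.42 and -0.22. Without a filter the number against SHH MB was 4 (1.68%). With the replicate number as a block, the numbers were 0 (0.551%) against P7 cerebella and 1 (0.771%) against SHH MB, but same-numbered libraries did not deviate together (correlations of -0.27 to 0.16), so the numbers do not pair the libraries. Leaving out 1 library gave 0 to 79 members higher (0.100 to 11.8% of all genes) and 0 to 1 lower (0.369 to 22.8%) against P7 cerebella and 0 to 77 higher (0.166 to 9.57%) against SHH MB. The cause was not tested. With protein-coding genes only, an alternative chosen after seeing the data, the numbers were 8 (6.69%) and 7 (3.69%). Between SHH MB and P7 cerebella, the fit of these 2 groups gave 13 members higher (13.4% of all genes) and 2 lower (10.3%), and total counts turned the median to -0.034. The shares moved to 0.789% (P7 cerebella) and 0.824% (SHH MB) with other symbols and pseudogene rows, and to 0.808 and 0.838% among protein-coding genes. Leaving out 1 library gave mean shares of 0.966 to 1.58% in tumors. Calls of the other translation genes moved too. For 21 genes called against P7 cerebella, the call held in 269 refits over the alternatives and was lost in 193. For 9 called against SHH MB, it held in 91 and was lost in 107. Of 22 alternatives, Grwd1 was called against SHH MB in 6 and Eef1b2 against P7 cerebella in 8. Tsr2 was called in 17 against either group.

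Small differences between SHH MB and P7 cerebella changed sign: with total counts Rpl36a (-0.034), Rps15a (-0.044) and Rpl29 (-0.11), with 10 counts in every library Rps15a (-0.00939) and Rpl29 (-0.074), without mitochondrial and rRNA-like genes Rpl29 (-0.00758) and with the replicate block Rpl29 (-0.055). Over left-out libraries this comparison spanned -0.23 to 0.11 for Rpl22l1, -0.11 to 0.10 for Rpl29, -0.082 to 0.24 for Rpl36a, -0.29 to 0.0066 for Rpl36al, -0.20 to 0.54 for Rpl3l, -0.084 to 0.0029 for Rpl41, -0.084 to 0.021 for Rps14, -0.026 to 0.15 for Rps15a, -0.25 to 0.13 for Rps27a, -0.40 to 0.036 for Rps27l and -0.20 to 0.0070 for Rpsa. Rpl3l spanned -0.95 to 0.15 against P7 cerebella and -1.06 to 0.042 against SHH MB, and Rps4l -0.77 to 0.17 against SHH MB. Low counts limit Rpl3l, Rps4l and the pseudogene models, whose libraries hold as few as 0 counts.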
